A study of Mus musculus with 34 samples.

Results

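The genes described here are named as genes for proteins of the mitochondrial ribosome and were chosen by symbol alone. They are the 78 protein-coding mouse genes whose symbol begins with Mrpl or Mrps and a digit, 49 with large-subunit names (Mrpl) and 29 with small-subunit names (Mrps), among 27179 gene identifiers counted. RNA came from CD4 T cells of C57BL/6 mice. They were isolated as naive cells and held for 3.5 days in cRPMI medium with plate-bound anti-CD3 and with anti-CD28, which together mimic antigen and costimulation, then stained and sorted into Trizol LS. Each of 34 libraries carried a culture code and a number. The groups were Tfh2_1e4 (n = 6), Tfh2_2e4 (n = 5), Tfh2_4e4 (n = 6), Tfh2_6e4 (n = 6), Tfh5_4e4 (n = 6) and TfhA_4e4 (n = 5). What a code stands for in the culture, what the number counts and which gate was sorted are not in the labels, so groups are named by code and number only. Nothing in the labels makes the replicates of a group separate mice or cultures. All p-values therefore measure only the spread between these libraries, which may be technical.

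The mitochondrial ribosome translates the few proteins that mitochondrial DNA encodes, all of them core subunits of the respiratory chain and the ATP synthase. Its ribosomal RNAs, mt-Rnr1 of the small subunit and mt-Rnr2 of the large subunit, are made inside the organelle, whereas its proteins are encoded in the nucleus, translated in the cytosol and imported. Activated T cells are known to build up mitochondria and their translation machinery as they begin to divide. Names do not always give the subunit: Mrps30 and Mrps18a are placed in the large subunit by structural work, and Dap3, Chchd1, Aurkaip1, Ptcd3 and Gadd45gip1 are ribosomal proteins under other names.

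Libraries held 4481509 to 9934245 counts, and the 78 genes took 9509 to 24546 of them. A pair of identifiers that the annotation gives no symbol held 39.2% to 53.8% of the counts of a library. All 8 markers of CD4 T cells had counts, with a summed level of 3027 to 4261 CPM, that is counts scaled to one common total per library, here over the counts with a symbol. Of other cell types, the 5 B-cell markers summed to at most 3.00 CPM, the 7 myeloid markers to at most 3.24, the 3 NK-cell markers to at most 1.55, the 4 dendritic-cell markers to at most 19.1 and the 2 CD8 T-cell markers to at most 29.5, with S100a8, S100a9, Klra8, Ncr1 and Siglech at 0 in every library. The share of mt-Rnr1 and mt-Rnr2 in counts with a symbol set TfhA_4e4 apart, at 12.7% to 17.5% against 5.83% to 11.6% in the libraries of the other 5 groups.

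Promoter sequence was compared because the members move in different directions below. Of the 78 genes, 69 matched an entry of 250 bases before to 50 bases after the start in the RefSeq table (GRCm38.p6). The core motif CCGGAAG of the ETS factor GABP was in 26 of the 69 (37.7%), against 21.9% of 8572 tested protein-coding genes and 9.93% of all 27025 genes in the table. The NRF1 motif GCGCANGCG was in 16 (23.2%, against 16.5% and 7.03%), and the YY1 motif AAGATGGCG in 8 (11.6%, against 3.93% and 1.64%). In the bases before the start alone, the YY1 motif was in 2 (2.90%, against 1.49% and 0.71%). The E-box CACGTG was in 5 (7.25%, against 12.02% and 8.09%), the cyclic-AMP response element TGACGTCA in 2 (2.90%, against 3.81% and 2.03%) and the ATF4 motif TGATGNAA in 0 (against 2.73% and 4.51%). Of 70 cytosolic ribosomal protein genes, 37.1% held the ETS core, 14.3% the NRF1 motif and 5.71% the YY1 motif. Of 70 nuclear-encoded respiratory chain subunits, 24.3% held the ETS core, 28.6% the NRF1 motif and 7 the YY1 motif. The ATF4 motif was in 0 of either set. The members' ETS share was near that of the cytosolic set, and their NRF1 share was below that of the respiratory chain set. Differences between these sets were not tested. Both strands were searched. The NRF1 motif is nearly its own reverse complement, so its matches on the strands can overlap, and no ETS match overlapped a YY1 match. The stretches below run from 145 to 26 bases before the start, with motif letters in capitals. They were chosen to show a member with an ETS core and one with an NRF1 motif that did not pass the test in any comparison, then members with a response element, an E-box and, in this stretch, none of these motifs that fell along the Tfh2 numbers.
Mrpl52 at chr14:54426764-54426883, plus strand: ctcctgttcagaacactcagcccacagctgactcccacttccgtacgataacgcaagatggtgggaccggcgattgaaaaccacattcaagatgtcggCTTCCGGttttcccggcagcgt
Mrpl17 at chr7:105811113-105811232, minus strand: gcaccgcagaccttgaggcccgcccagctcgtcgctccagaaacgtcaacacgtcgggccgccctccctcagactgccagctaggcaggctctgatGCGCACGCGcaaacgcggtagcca
Mrpl16 at chr19:11770270-11770389, plus strand: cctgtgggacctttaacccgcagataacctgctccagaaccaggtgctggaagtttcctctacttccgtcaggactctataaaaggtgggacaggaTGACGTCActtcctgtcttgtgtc
Mrpl20 at chr4:155802733-155802852, plus strand: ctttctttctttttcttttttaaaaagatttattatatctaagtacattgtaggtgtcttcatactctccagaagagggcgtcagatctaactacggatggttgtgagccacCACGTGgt
Mrpl42 at chr10:95501975-95502094, minus strand: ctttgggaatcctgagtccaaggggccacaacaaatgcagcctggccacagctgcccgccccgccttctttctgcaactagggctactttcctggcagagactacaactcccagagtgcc
The window of Mrpl42 holds a YY1 motif outside the stretch printed. A match in these windows is a description of letters and not a measured binding site.

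Nearly all of the 78 genes were transcribed at moderate levels in every group. The filter on low counts passed 72, 47 with large-subunit and 25 with small-subunit names, and the median of their mean levels was 26.1 CPM, against 12.7 CPM over the 11357 genes tested. These libraries give about 1 read per transcript end, so CPM (from here on scaled to normalized library totals) is not divided by gene length. The highest mean levels over the 34 libraries were those of Mrpl45 (104.9 CPM), which holds the ribosome at the inner membrane near its exit tunnel, Mrpl33 (87.3), Mrpl18 (84.9), Mrpl30 (78.1), Mrpl52 (68.8) and Mrpl14 (64.7), all of the large subunit. At the other end, Mrpl23 (232 counts over all libraries) and Mrpl24 (183) passed the filter with means of 0.926 and 0.708 CPM. The 6 members that did not pass, and so were not tested, were Mrpl12 (145 counts), which is known to bind the mitochondrial RNA polymerase, Mrps36 (72), Mrps17 (67), Mrps28 (40), Mrps18b (10) and Mrpl36 (0). Whether their transcripts are scarce or end outside the counted exons was not tested.

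**Figure D1:**
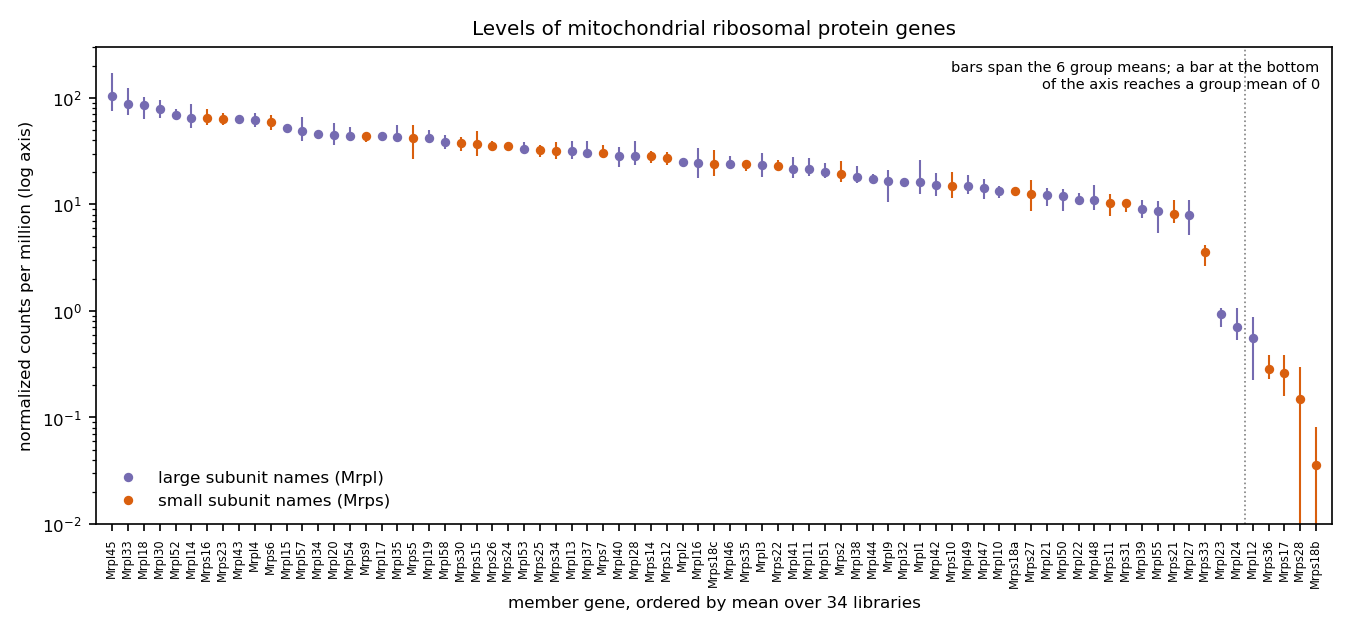
Mean normalized CPM over 34 libraries (points, log axis) of the 77 members with a count, ordered by level, with a bar from the lowest to the highest of the 6 group means. The dotted line separates the 72 members that passed the filter from those that did not, and the levels fall from 104.9 CPM for Mrpl45 to 0.708 CPM for Mrpl24 among those that passed.

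Members varied little between groups. The ratio of the highest to the lowest group mean had a median of 1.46 and ran from 1.09 to 2.25, and it was under 2 for 68 of the 72. Among members above 10 CPM its median was 1.43, against 1.56 over the 6308 genes above that level. It was under 2 for 62 of these 65 members, against 74.0% of those genes. The group where a member was highest was most often Tfh2_1e4 (25 members) or TfhA_4e4 (23), and least often Tfh5_4e4 (3). Tfh2_6e4 was the lowest group for 18 members and Tfh5_4e4 for 15. The mean log2 CPM of the 72 members was 4.61 in Tfh2_1e4, 4.56 in Tfh2_2e4, 4.49 in Tfh2_4e4, 4.45 in Tfh2_6e4, 4.48 in Tfh5_4e4 and 4.64 in TfhA_4e4. Mrpl11, of the stalk base where elongation factors dock, and Mrps12, of the decoding centre, followed that mean most closely over the 6 group means (Pearson's r = 0.99 and 0.97, n = 6 groups). Mrps34 and Mrpl9 were least like it (r = -0.94 and -0.91). These r values describe groups that share one normalization and carry no test.

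**Figure D2:**
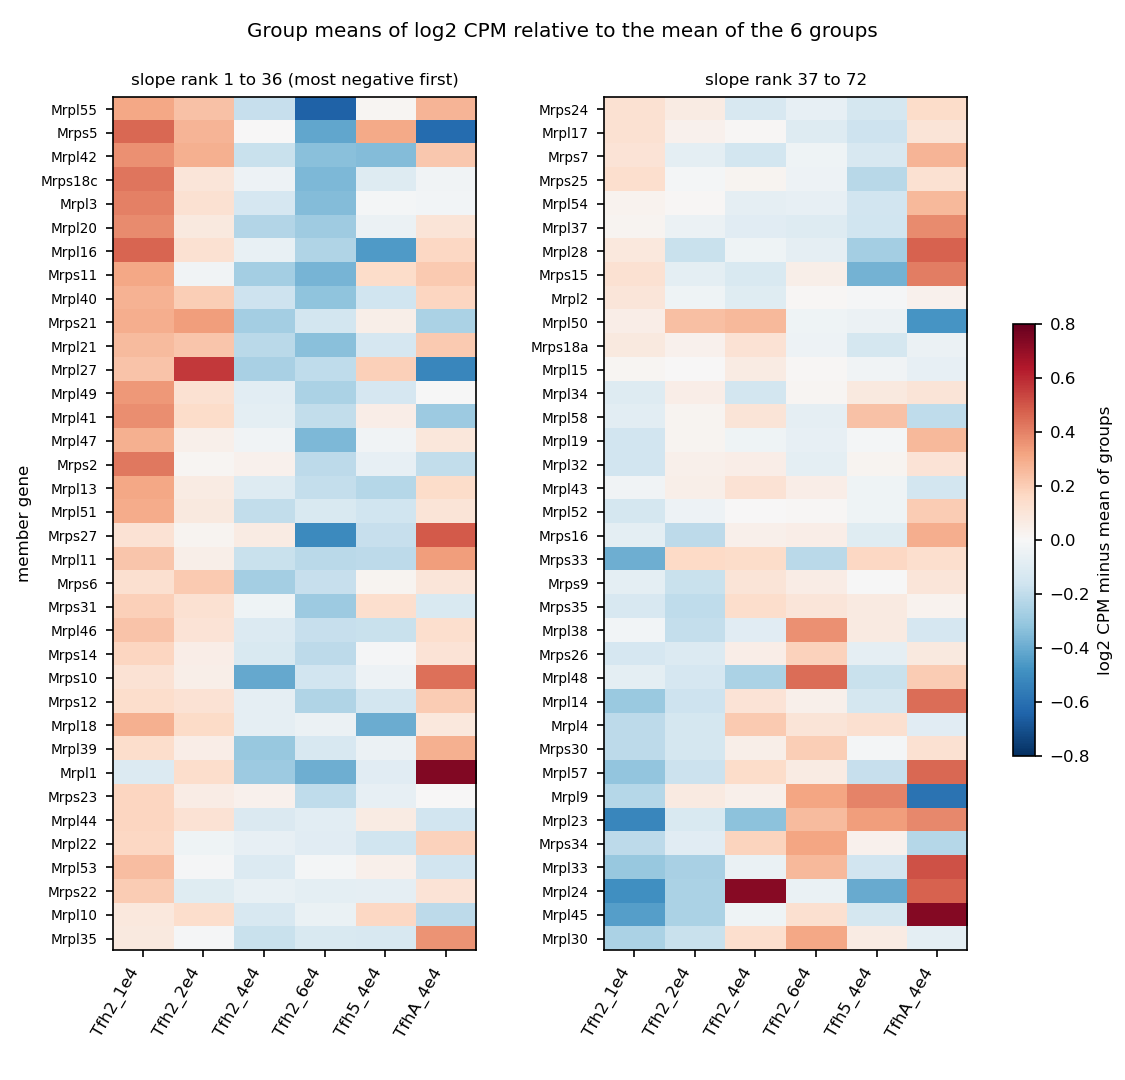
Group means of log2 CPM for the 72 tested members, each relative to its mean over the 6 groups (colour), with members ordered by their slope along the Tfh2 numbers. Members with the most negative slopes, such as Mrpl55 and Mrps5, go from red in Tfh2_1e4 to blue in Tfh2_6e4, and Mrpl45 and Mrpl1 are reddest in TfhA_4e4.

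Along the Tfh2 numbers more members fell than rose. A slope of log2 level on log2 of the number, so that 1 unit is a doubling of the number, was fitted to Tfh2_1e4, Tfh2_2e4, Tfh2_4e4 and Tfh2_6e4. Of the 72 members, 24 (33.3%) fell, where 22.8% of all genes tested fell, and 10 (13.9%) rose, where 24.1% of all genes tested rose, at an edgeR quasi-likelihood adjusted p under 0.05. The median slope of the members was -0.09, against -0.00 over all genes tested. Large-subunit names had 15 of 47 lower and 7 higher, and small-subunit names 9 of 25 lower and 3 higher. The Tfh2_1e4 and Tfh2_6e4 libraries did not overlap in 14 of the 72 members (19.4%), against 24.2% of all genes tested, and in 13 of the 34 members called (38.2%), against 51.2% of the 5331 genes called.

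Mrps5, whose bacterial counterpart lines the entry of the mRNA channel, fell by the smallest p among the members that went down. Its level was 49.4 to 66.5 CPM in Tfh2_1e4 (median 54.9) and 20.9 to 41.9 CPM in Tfh2_6e4 (median 31.6), with Tfh2_2e4 at 52.4, 55.6, 42.6, 44.4 and 48.6 CPM and Tfh2_4e4 at 28.0 to 51.5 CPM (median 45.2). The lowest and highest numbers did not overlap. The slope was -0.31 ± 0.05 (SE), with an edgeR adjusted p of 3.6e-06. Mrps18c, one of several mitochondrial relatives of bacterial S18, went from 25.4 to 38.5 CPM (median 31.9) in Tfh2_1e4 to 15.3 to 23.3 CPM (median 17.5) in Tfh2_6e4, a slope of -0.28 ± 0.05 (edgeR adjusted p = 5.12e-06), and its last 500 exon bases share 158 with another gene on the same strand, so its counts are uncertain. Mrpl55, found in animal but not bacterial ribosomes, had the most negative slope, -0.33 ± 0.10 (edgeR adjusted p = 0.00474), at 9.03 to 12.6 CPM in Tfh2_1e4 (median 9.54) and 3.36 to 8.57 CPM in Tfh2_6e4 (median 5.48). Mrpl42 had 16.8 to 25.01 CPM in Tfh2_1e4 (median 19.0) and 8.61 to 17.0 CPM in Tfh2_6e4 (median 11.6), and 1 library of each crossed into the other's range. Its slope was -0.29 ± 0.06 (edgeR adjusted p = 4.1e-05). The other members that fell had slopes from -0.28 (Mrpl3) to -0.12 (Mrps23), among them Mrpl16 and Mrpl20, whose promoter stretches are printed above.

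The members that rose were led by some of the most abundant ones. Mrpl30, a counterpart of bacterial L30, had 43.6 to 79.4 CPM in Tfh2_1e4 (median 68.0), then 63.0, 87.9, 53.7, 80.7 and 58.4 CPM in Tfh2_2e4, 72.8 to 96.8 CPM in Tfh2_4e4 (median 83.2) and 81.9 to 109.8 CPM in Tfh2_6e4 (median 93.7). The end groups did not overlap, and the slope was 0.22 ± 0.05 (edgeR adjusted p = 0.000119). Mrpl45 (chr11:97314923-97329920) had 60.5 to 85.7 CPM in Tfh2_1e4 (median 78.3) and 103 to 132 CPM in Tfh2_6e4 (median 108), a slope of 0.21 ± 0.04 (edgeR adjusted p = 2.02e-05). Mrpl33 (chr5:31613951-31622644) had 62.5 to 73.3 CPM in Tfh2_1e4 (median 69.9) and 88.8 to 113 CPM in Tfh2_6e4 (median 104), a slope of 0.21 ± 0.04 (edgeR adjusted p = 4.68e-06). The group means of both were higher at each of the 3 steps, and their end groups were separate. Mrps34, a small-subunit protein with no bacterial counterpart, had 25.01 to 29.8 CPM in Tfh2_1e4 and 34.9 to 43.4 CPM in Tfh2_6e4 (medians 26.6 and 38.7), a slope of 0.21 ± 0.04 (edgeR adjusted p = 6.52e-06). All of the last 500 exon bases of Mrps34 lie opposite the gene Mapk8ip3, and 177 of the last 478 of Mrpl33 lie in Gm43809 on the same strand. Since the strand setting of the counting is not given in the sources used here, these counts are uncertain.

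**Figure D3:**
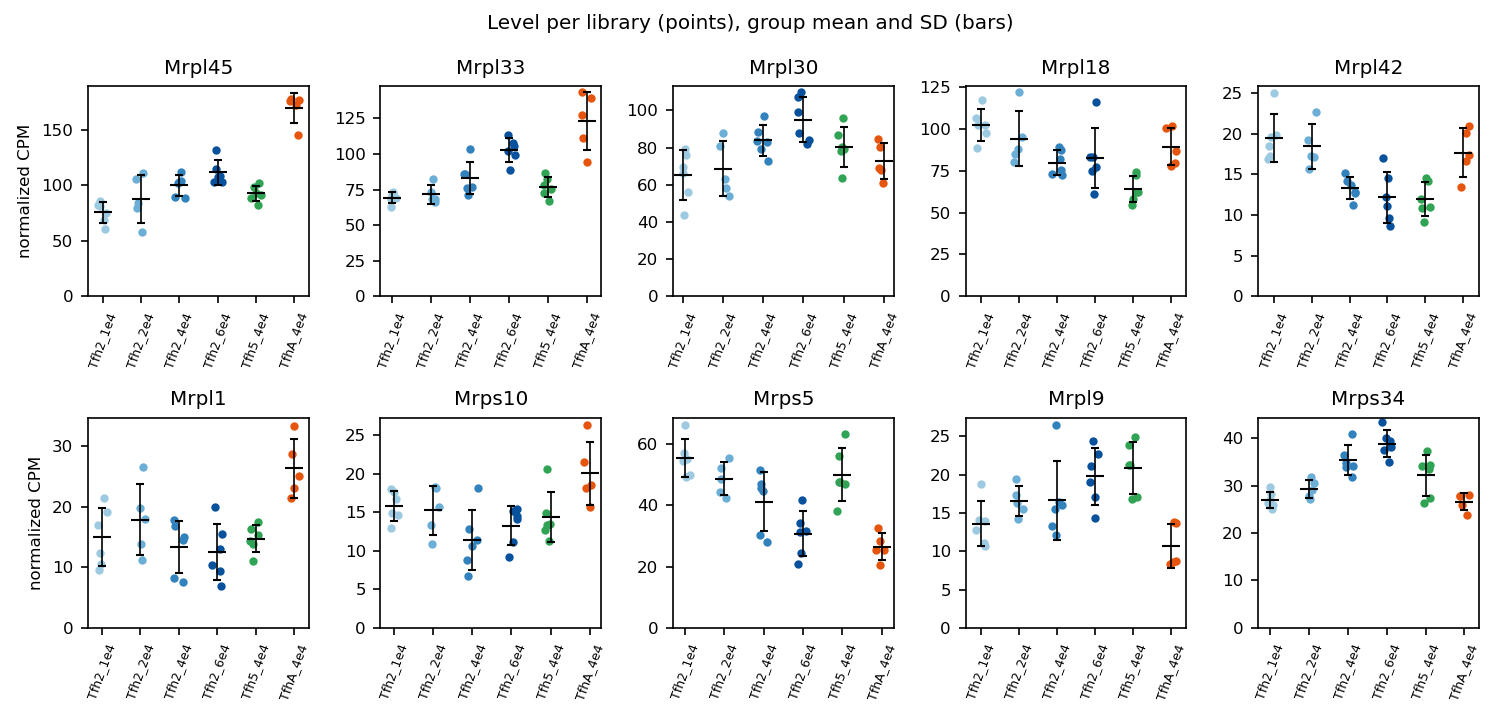
Normalized CPM per library (points) in the 6 groups, with the mean and SD (bars), for 10 members. The Mrpl45 points of TfhA_4e4, 146 to 177 CPM, lie above all points of the other groups, and those of Mrps5 and Mrps34 move in opposite directions along the Tfh2 numbers.

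Single steps between neighbouring numbers changed few members. From Tfh2_1e4 to Tfh2_2e4, edgeR called 0 higher (4.06% of all genes tested) and 0 lower (1.2%), with 5 members at an unadjusted p under 0.05, and DESeq2 and limma-voom each called 0. From Tfh2_2e4 to Tfh2_4e4 it called 0 higher (7.59%) and 1 lower (5.4%), with 16 at an unadjusted p under 0.05, whereas DESeq2 and limma-voom each called 2 higher and 2 lower. The one lower was Mrps6, a small-subunit protein, at 66.4, 84.4, 61.4, 52.4 and 80.6 CPM in Tfh2_2e4 and 35.6 to 68.8 CPM in Tfh2_4e4 (median 49.5). These libraries overlapped, and the change was -0.48 ± 0.14 (edgeR adjusted p = 0.0125). Without Tfh2_2e4 replicate 2 it was not called (adjusted p = 0.0573). From Tfh2_4e4 to Tfh2_6e4 it called 1 higher (0.616%) and 0 lower (0.863%), with 7 at an unadjusted p under 0.05, and the DESeq2 and limma-voom counts were 2 and 1 higher and 0 lower. That member was Mrpl48, of the large subunit, at 7.62 to 10.6 CPM in Tfh2_4e4 (median 8.92) and 9.95 to 23.5 CPM in Tfh2_6e4 (median 14.4). It rose by 0.76 ± 0.19 (edgeR adjusted p = 0.0262), but was not called without any one of Tfh2_4e4 replicate 3 (adjusted p = 0.0835), Tfh2_4e4 replicate 6 (0.0618), Tfh2_6e4 replicate 2 (0.133) or Tfh2_6e4 replicate 5 (0.0730). Leaving out single libraries moved the count higher from Tfh2_2e4 to Tfh2_4e4 to 1 (Tfh2_2e4 replicate 5, Tfh2_4e4 replicates 1, 4 and 6). It moved the count lower there to 2 (Tfh2_4e4 replicate 3) or 3 (Tfh2_2e4 replicate 5, Tfh2_4e4 replicates 2 and 4), and the count higher from Tfh2_4e4 to Tfh2_6e4 to 2 (Tfh2_4e4 replicate 2). The slope uses all 4 groups at once, over a wider range of numbers than a step. Its values are per doubling and not the change over that range, so their sizes were not compared with those of the steps.

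In TfhA_4e4 most members that changed were higher. Against Tfh2_4e4, 13 of the 72 members (18.1%) were higher, where 15.5% of all genes tested were, and 4 (5.56%) lower, where 17.4% were, with a median of 0.16 against -0.01 over all genes tested. Against Tfh5_4e4, 17 (23.6%) were higher, where 19.1% of all genes tested were, and 4 (5.56%) lower, where 20.4% were, with a median of 0.16 against 0.00. The shares of members called higher are near those of all genes, and the shares called lower are below them. These comparisons share the TfhA_4e4 libraries and are not independent of each other, nor is the first independent of the slope, with which it shares Tfh2_4e4. Large-subunit names had 9 of 47 higher and 2 lower against Tfh2_4e4, and 13 and 2 against Tfh5_4e4. Small-subunit names had 4 of 25 higher and 2 lower in each. The summed CD4 T-cell markers were at 3027 to 3295 CPM in TfhA_4e4, 3682 to 4257 in Tfh2_4e4 and 3718 to 4116 in Tfh5_4e4, and their part in these differences was not tested. In bulk RNA, fewer cells of a kind and less RNA per cell cannot be told apart.

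Mrpl45 stood highest, at 176, 177, 177, 172 and 146 CPM in TfhA_4e4. It was at 88.7 to 112 CPM in Tfh2_4e4 (median 103) and at 82.4 to 102 CPM in Tfh5_4e4 (median 91.9), so neither group overlapped TfhA_4e4. It was higher by 0.76 ± 0.12 against Tfh2_4e4 (edgeR adjusted p = 7.27e-07) and by 0.87 ± 0.12 against Tfh5_4e4 (edgeR adjusted p = 3.09e-08). Mrpl1 (chr5:96209498-96266727), of the mobile stalk beside the site where tRNA leaves, was at 23.1, 25.1, 21.4, 33.4 and 28.7 CPM in TfhA_4e4. It was at 7.60 to 17.8 CPM in Tfh2_4e4 (median 14.8) and at 11.1 to 17.4 CPM in Tfh5_4e4 (median 14.8), again without overlap, and higher by 0.98 ± 0.24 and 0.84 ± 0.24 (edgeR adjusted p = 0.001 and 0.00357). Mrpl33 was at 111, 144, 139, 127 and 94.4 CPM in TfhA_4e4 and at 70.8 to 103 CPM in Tfh2_4e4 (median 81.4), which overlapped in 1 library of each, a difference of 0.57 ± 0.10 (edgeR adjusted p = 2.4e-05). Mrps10 was at 18.1, 21.5, 18.6, 15.7 and 26.3 CPM in TfhA_4e4 and at 6.77 to 18.2 CPM in Tfh2_4e4 (median 11.0), with overlap, a difference of 0.79 ± 0.20 (edgeR adjusted p = 0.00125).

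Against Tfh5_4e4 the largest rises after Mrpl45 and Mrpl1 were those of Mrps15 and Mrpl28. Mrps15, which binds the small rRNA, was at 54.1, 45.6, 53.3, 53.04 and 39.0 CPM in TfhA_4e4 and at 21.0 to 36.998 CPM in Tfh5_4e4 (median 28.3), higher by 0.79 ± 0.13 (edgeR adjusted p = 5.04e-06). Mrpl28 was at 46.7, 35.8, 40.1, 32.0 and 42.8 CPM in TfhA_4e4 and at 19.7 to 28.9 CPM in Tfh5_4e4 (median 23.3), higher by 0.75 ± 0.15 (edgeR adjusted p = 5.28e-05). Neither overlapped Tfh5_4e4. Mrps15 also rose against Tfh2_4e4 by 0.54 and Mrpl28 by 0.49, both called.

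The members lower in TfhA_4e4 were Mrpl9, Mrps5 and Mrps34 in both comparisons, Mrpl50 against Tfh2_4e4 and Mrpl58 against Tfh5_4e4. Mrps5 was at 28.2, 25.5, 32.6, 25.4 and 20.7 CPM in TfhA_4e4 and at 38.1 to 63.5 CPM in Tfh5_4e4 (median 47.8), without overlap, a log2 fold change of -0.91 ± 0.16 (edgeR adjusted p = 7.16e-06). Against Tfh2_4e4, whose range reached down into that of TfhA_4e4, its change was -0.63 ± 0.16 (edgeR adjusted p = 0.00152). Mrpl9 (chr3:94443154-94448708), at the base of the large subunit's L1 stalk, was at 8.35, 13.9, 8.61, 13.6 and 8.69 CPM in TfhA_4e4 and at 16.8 to 24.98 CPM in Tfh5_4e4 (median 21.3), a change of -0.96 ± 0.19 without overlap (edgeR adjusted p = 7.4e-05). Against Tfh2_4e4 (12.1 to 26.5 CPM, median 15.8) its change was -0.63 ± 0.19 (edgeR adjusted p = 0.00938), and -0.45 and not called without Tfh2_4e4 replicate 4 (adjusted p = 0.0593). Mrps34 was at 25.8, 27.7, 23.7, 27.8 and 28.0 CPM in TfhA_4e4, below all Tfh2_4e4 libraries (31.8 to 41.0 CPM), a change of -0.41 ± 0.11 (edgeR adjusted p = 0.00275). Against Tfh5_4e4 its change was -0.28 ± 0.11 (edgeR adjusted p = 0.0388), and 14 of the alternatives did not call it, limma-voom and DESeq2 among them. Mrpl50, of the large subunit, was at 6.96, 8.28, 8.94, 13.9 and 5.40 CPM in TfhA_4e4 and at 11.0 to 17.3 CPM in Tfh2_4e4 (median 14.1), where 1 TfhA_4e4 library overlapped. Its change was -0.66 ± 0.20 (edgeR adjusted p = 0.00716). Mrpl58, a peptidyl-tRNA hydrolase that became a ribosomal protein, was at 41.3, 28.8, 34.1, 32.1 and 30.5 CPM in TfhA_4e4 and at 38.5 to 51.6 CPM in Tfh5_4e4 (median 45.3). Its change was -0.43 ± 0.14 (edgeR adjusted p = 0.00952), and 1 TfhA_4e4 library overlapped Tfh5_4e4.

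The share of mt-Rnr1 and mt-Rnr2 moved with TfhA_4e4 and did not overlap between it and either other code at 4e4 (8.13% to 11.1% in Tfh2_4e4, 8.44% to 11.2% in Tfh5_4e4), so the share and the code cannot be told apart. With the share as a covariate, edgeR called 16 members higher and 1 lower against Tfh2_4e4, and 21 higher and 2 lower against Tfh5_4e4, with medians of 0.43 and 0.40. Of all 11357 genes in that fit, 1128 were higher and 1592 lower against Tfh2_4e4. Against Tfh5_4e4 these were 1429 and 1765, and the medians over all genes were -0.02 and -0.01. Mrpl45 (0.90 and 1.01), Mrpl33 (0.87 against Tfh2_4e4), Mrps15 (0.79 against Tfh5_4e4) and Mrpl28 (0.86 against Tfh5_4e4) were still called. Mrpl1 was not, at 0.42 (adjusted p = 0.41) and 0.25 (adjusted p = 0.637), nor was Mrps10 at 0.75 (adjusted p = 0.0607). Of the lower members, Mrps5 (-0.49, adjusted p = 0.126), Mrpl9 (-0.59, adjusted p = 0.139) and Mrps34 (-0.26, adjusted p = 0.267) were not called against Tfh2_4e4. Against Tfh5_4e4 Mrps34 (-0.13, adjusted p = 0.622) and Mrpl58 (-0.14, adjusted p = 0.652) were not called, while Mrps5 (-0.77) and Mrpl9 (-0.92) were. Of the genes of other lists given below, the covariate took Atf4 to 0.12 against Tfh2_4e4 (adjusted p = 0.905) and Tfb1m to 1.03 against Tfh5_4e4 (adjusted p = 0.277). Fastkd2 (0.72 against Tfh2_4e4, adjusted p = 0.187), Eral1 (0.99 against Tfh5_4e4, adjusted p = 0.097) and Ddx28 (-0.51 and -0.82, adjusted p = 0.285 and 0.0526) were no longer called either, at sizes near or above those without it.

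No member passed the edgeR test between Tfh5_4e4 and Tfh2_4e4. It called 0 higher (1.41% of all genes tested were higher) and 0 lower (1.7%), and 4 members had an unadjusted p under 0.05. DESeq2 and limma-voom also called 0 in each direction. The members' changes had a median of -0.05, against -0.01 over all genes tested, and their lower and upper quartiles were -0.12 and 0.11.

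**Figure D4:**
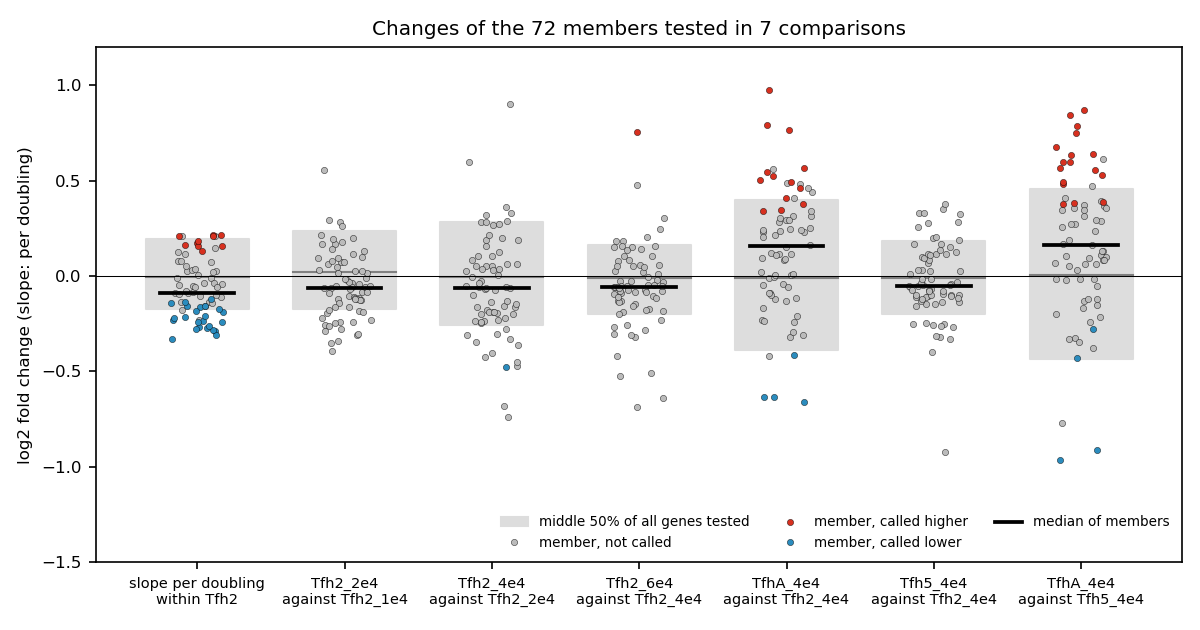
Log2 fold changes of the 72 tested members (points, coloured by call; slope in log2 units per doubling) in 7 comparisons, with the members' median (black line) and the middle 50% of all 11357 genes tested (grey box, with its median). The members' median lies below 0 for the slope (-0.09) and at 0.16 in both comparisons of TfhA_4e4, while no member is called for Tfh5_4e4 against Tfh2_4e4 or Tfh2_2e4 against Tfh2_1e4.

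Other parts of the mitochondrial translation apparatus gave the following counts. Of the 5 ribosomal proteins under other names, 4 rose in TfhA_4e4 against Tfh2_4e4, where 15.5% of all genes tested rose. Chchd1, a small-subunit protein, went from 38.8 ± 7.16 CPM (SD, n = 6) to 61.7 ± 14.5 CPM (SD, n = 5), a change of 0.67 (edgeR adjusted p = 0.0013). Aurkaip1 (0.35), Ptcd3 (0.82) and Dap3 (0.39), the GTP-binding protein of the small subunit, were the other three. Dap3 was not called without any one of Tfh2_4e4 replicates 2, 4, 5 and 6 and TfhA_4e4 replicates 1, 3 and 5, and Aurkaip1 without Tfh2_4e4 replicates 3 or 4 or TfhA_4e4 replicate 2. Ptcd3 was not followed under the alternatives. Against Tfh5_4e4, 2 of the 5 were higher in TfhA_4e4, Chchd1 and Dap3, where 19.1% of all genes tested were. Gadd45gip1, a large-subunit protein at the exit tunnel, rose along the Tfh2 numbers from 46.1 ± 6.91 CPM (SD, n = 6) in Tfh2_1e4 to 86.9 ± 12.9 CPM (SD, n = 6) in Tfh2_6e4 (slope 0.37, edgeR adjusted p = 2.19e-09). It was lower in Tfh5_4e4 than in Tfh2_4e4 (-0.49, edgeR adjusted p = 0.0128), a call that was lost without Tfh5_4e4 replicate 3.

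Assembly factors and rRNA-modifying enzymes (26 tested) had 4 higher (15.4%) and 7 lower (26.9%) along the numbers, where 24.1% and 22.8% of all genes tested were. Mrm1, an rRNA methyltransferase, rose by 0.54 and Ngrn by 0.27 per doubling, while Mpv17l2 fell by 0.71 per doubling and Mrm3 by 0.56. In TfhA_4e4 against Tfh2_4e4, Fastkd2 rose by 0.82 and the RNA helicase Ddx28 fell by 0.62, a call lost without Tfh2_4e4 replicate 1 or TfhA_4e4 replicate 5. Against Tfh5_4e4, Tfb1m (1.49) and Eral1 (0.83), both acting on the small-subunit rRNA, were higher and Ddx28 (-0.94) was lower. Eral1 was not called without Tfh5_4e4 replicate 5 or TfhA_4e4 replicate 6. Translation factors (14 tested) had 2 higher (14.3%) and 1 lower (7.14%) along the numbers. Mrrf, the ribosome recycling factor, was at 14.8 ± 5.07 CPM in TfhA_4e4 (SD, n = 5) and 30.2 ± 3.72 CPM in Tfh5_4e4 (SD, n = 6), a change of -1.03 (edgeR adjusted p = 8.22e-06). The 17 mitochondrial tRNA synthetases tested had 3 higher and 3 lower along the numbers (17.6% each way, below the shares of all genes tested). Of 17 tested genes of mitochondrial transcription and RNA processing, 3 rose and 3 fell along the numbers, again 17.6% each way. They included Hsd17b10, a subunit of the mitochondrial RNase P, at 0.48 and Tfam, which packages mitochondrial DNA and takes part in its transcription, at -0.25.

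Transcripts made inside the organelle were measured too. Along the numbers mt-Rnr1 and mt-Rnr2 both rose (slopes 0.17 and 0.15, edgeR adjusted p = 0.000522 and 0.00457), and of 8 mitochondrial mRNAs tested mt-Co1 rose (0.25) while mt-Nd1 (-0.26) and mt-Nd2 (-0.28) fell. In TfhA_4e4 mt-Rnr1 and mt-Rnr2 were higher by 0.58 and 0.60 against Tfh2_4e4 and by 0.64 and 0.62 against Tfh5_4e4, all called by edgeR. Against Tfh2_4e4 6 of the 8 mRNAs were higher and 5 against Tfh5_4e4, with medians of 0.59 and 0.64, and 0 were lower. Of all genes tested, 15.5% and 19.1% were higher in these comparisons. With the mt-Rnr1 and mt-Rnr2 share as a covariate, mt-Co1 (0.15 and 0.13) and mt-Nd1 (0.04 and 0.07) were not called, nor was mt-Rnr1. The share contains mt-Rnr1 and mt-Rnr2, and mt-Rnr2 then turned to -0.26 and -0.25 (adjusted p = 0.0263 and 0.0285), while mt-Nd2 was at -0.27 and -0.18 and not called. Of 11 tested regulators of mitochondrial gene programmes, Ddit3 (9.35 ± 2.00 CPM, SD, n = 6, in Tfh2_4e4 and 36.2 ± 6.69 CPM, SD, n = 5, in TfhA_4e4), Atf5 (3.83 ± 1.97 CPM, SD, n = 6, and 14.0 ± 4.78 CPM, SD, n = 5) and Atf4 rose in TfhA_4e4, by 1.95, 1.84 and 1.0032. These are transcription factors of the integrated and mitochondrial stress responses. Atf4 was not called without Tfh2_4e4 replicates 1 or 4 or TfhA_4e4 replicate 6. Myc, which drives growth genes including ribosomal ones, was lower (-1.25, edgeR adjusted p = 0.00438). Gabpa and Nrf1 fell along the numbers (-0.21 and -0.14) and Yy1 rose (0.15), and the Nrf1 call was lost without Tfh2_6e4 replicate 5.

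The proteins of the cytosolic ribosome and of the respiratory chain were measured beside the members. Along the numbers 47 of 85 tested cytosolic ribosomal protein genes rose (55.3%) and 3 fell (3.53%), with a median slope of 0.16. Of 76 nuclear-encoded respiratory chain subunits 6 rose (7.89%) and 38 fell (50.0%), with a median of -0.11. Of all genes tested, 24.1% rose and 22.8% fell. In TfhA_4e4 against Tfh2_4e4 the cytosolic group had 5 higher (5.88%) and 4 lower (4.71%), with a median of -0.10. The respiratory chain had 21 higher (27.6%) and 3 lower (3.95%), with a median of 0.20. Of all genes tested, 15.5% were higher and 17.4% lower. Differences between these groups of genes were not tested. The members took 0.477 ± 0.036% of counts with a symbol in Tfh2_1e4 (SD, n = 6), 0.455 ± 0.020% in Tfh2_2e4 (SD, n = 5), 0.432 ± 0.038% in Tfh2_4e4 (SD, n = 6) and 0.419 ± 0.027% in Tfh2_6e4 (SD, n = 6). They took 0.423 ± 0.024% in Tfh5_4e4 (SD, n = 6) and 0.486 ± 0.048% in TfhA_4e4 (SD, n = 5), and the ranges of neighbouring groups overlapped. In each of the 6 groups all libraries numbered 1 to 3 were above all those numbered 4 to 6, a split noticed in these values that the labels do not call a batch. Among numbers 1 to 3 the mean share was 0.509% in Tfh2_1e4, 0.442% in Tfh2_6e4, 0.465% in Tfh2_4e4 and 0.518% in TfhA_4e4, and among numbers 4 to 6 it was 0.446%, 0.396%, 0.399% and 0.438%. On both sides Tfh2_1e4 was above Tfh2_6e4 and TfhA_4e4 above Tfh2_4e4. Cytosolic ribosomal protein genes took 5.85 ± 0.51% in Tfh2_1e4 (SD, n = 6) and 7.42 ± 0.55% in Tfh2_6e4 (SD, n = 6). These shares do not use the normalized library totals. In normalized CPM the members summed to 2324 ± 156 in Tfh2_1e4 and 2222 ± 129 in Tfh2_6e4 (SD, n = 6 each), with overlapping ranges. The cytosolic genes summed to 28481 ± 2395 and 39345 ± 2936 CPM (SD, n = 6 each).

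**Figure D5:**
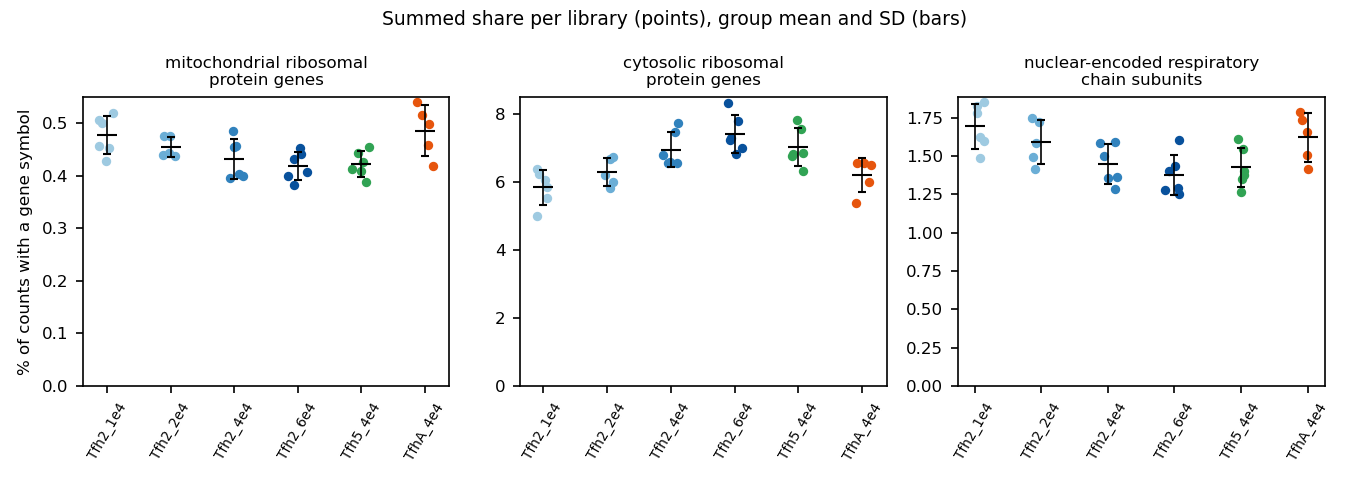
Share of counts with a symbol per library (points; axes start at 0), with the group mean and SD, for the members, the cytosolic ribosomal protein genes and the nuclear-encoded respiratory chain subunits. Along the Tfh2 numbers the members' mean share goes from 0.477% to 0.419% while that of the cytosolic group goes from 5.85% to 7.42%. The shares do not use normalized library totals, and in normalized CPM the members' sum goes from 2324 to 2222.

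Many members sit back to back with another gene. A protein-coding gene on the opposite strand started within 1000 bases upstream of 18 of the 78 members (23.1%), against 11.1% of 10357 tested protein-coding genes and 6.77% of all 22028. For 16 of these pairs both genes were tested. Along the Tfh2 numbers both were called in 4 pairs, in the same direction in 2. Of all genes tested, 24.1% rose and 22.8% fell there, so some pairs with both called arise without any link. Whether the pairs differ from unrelated genes was not tested. Mrps12 fell with Sars2, a mitochondrial tRNA synthetase whose call was lost without Tfh2_1e4 replicate 3 (adjusted p = 0.0637) or Tfh2_6e4 replicate 5 (adjusted p = 0.0527), and Mrpl51 (-0.18) fell with the condensin gene Ncapd2 (-0.40). Mrpl49 (-0.23) fell while Fau (0.30), 59 bases away, which encodes a cytosolic ribosomal protein, rose. Mrpl57 (0.17) rose while Ska3 (-0.51), a mitotic gene 49 bases away, fell. For TfhA_4e4 against Tfh5_4e4 both were called in 2 pairs, in the same direction in 1, where 19.1% of all genes tested were higher and 20.4% lower.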

How the data were processed

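The authors deposited whole-number read counts per gene identifier for each library. Per the labels' protocols, 50 ng of RNA entered a Lexogen 3' mRNA kit, and the aligner STAR (2.7.2b), the counter featureCounts (1.6.4) and the build mm10 appear in the submitters' processing notes. Strand and multi-mapping settings are not given in the sources used here. Of 27179 identifiers, 25275 matched a symbol in the RefSeq GRCm38.p6 table. GENCODE vM21 gave neighbouring and overlapping genes. The 34 libraries of all 6 groups entered one fit of the counts in edgeR 4.0.16 (R 4.3.3) with TMM, filterByExpr by group (11357 genes) and two-sided quasi-likelihood F-tests, with Benjamini-Hochberg adjustment over all of them and a threshold of 0.05. The total behind CPM includes identifiers without a symbol, and log2 CPM used a prior count of 1. Counts per library were 4481509 to 9934245, those of identifiers without a symbol included. Libraries of the same group differed by more than counting noise. The chi-square per degree of freedom was 5.32 to 57.7 between them, over genes with at least 340 counts in total. Precision was therefore not set by the counts alone. Members, lists and tests were chosen with earlier results of these data known. Named members are the 6 most abundant and those under 1 CPM. They also include up to 4 called per direction with the largest change in the slope and code pairs (3 in steps), called members that go against most others, and the 2 most and 2 least like the members' mean. From other lists up to 3 called per direction are named by adjusted p. Mrpl3, Mrps23, Ptcd3 and the members of printed promoters or neighbouring pairs were named outside these rules, after their values were seen. Alternatives were RLE and upper-quartile factors, DESeq2 1.42.0, limma-voom (limma 3.58.1), no filter, other library totals, only the compared groups, a replicate block, a covariate and single libraries left out. One gene of the other lists is not reported here.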

Additional observations from a re-analysis of the deposited data

Results flagged for a closer look

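The 25 series checked in 6 groups were the levels of the named members tested and the summed share of all members. In 6 of these 150 groups of values, 1 library stood apart from the rest of its group by a gap large against the group's range. By chance about 1 in 20 would. Mrpl23 was at 1.51 CPM in Tfh2_2e4 replicate 5 and at 0.412 to 0.562 CPM in the others. Mrpl24 was at 1.98 CPM in Tfh2_1e4 replicate 1 and at 0 to 0.640 CPM in the others. Mrpl42 was at 25.01 CPM in Tfh2_1e4 replicate 3, against 16.8 to 19.8 CPM. Mrpl45 was at 145.7 CPM in TfhA_4e4 replicate 6, the lowest of that group, against 172.4 to 177.5 CPM. Mrpl55 was at 21.1 CPM in TfhA_4e4 replicate 1, against 6.42 to 10.4 CPM. Mrpl9 was at 26.5 CPM in Tfh2_4e4 replicate 4, against 12.1 to 16.4 CPM.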

How the results depend on the processing

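Of 99 called results for single genes, 57 kept their direction and passed the threshold under every alternative run for them. Without each library in turn, the members called along the slope were 9 to 11 higher and 22 to 28 lower, those for TfhA_4e4 against Tfh2_4e4 9 to 15 higher and 4 to 5 lower, and against Tfh5_4e4 16 to 18 higher and 3 to 5 lower. For Tfh2_4e4 against Tfh2_2e4 these ranges were 0 to 1 higher and 0 to 3 lower, for Tfh2_6e4 against Tfh2_4e4 0 to 2 higher and 0 to 0 lower, and both directions stayed at 0 for Tfh2_2e4 against Tfh2_1e4 and Tfh5_4e4 against Tfh2_4e4. For Tfh2_4e4 against Tfh2_2e4 DESeq2 and limma-voom each called 2 higher and 2 lower, and RLE factors, leaving out identifiers without a symbol, and leaving out Tfh2_4e4 replicate 3 and Tfh2_2e4 replicate 6 together each called 2 lower, while fitting only the compared groups called 0 lower. For Tfh2_6e4 against Tfh2_4e4 DESeq2 called 2 higher, and both fitting only the compared groups and leaving out those 2 libraries called 0. With the mitochondrial rRNA share as a covariate, 1 member was lower in TfhA_4e4 against Tfh2_4e4 (1592 of 11357 genes) and 2 against Tfh5_4e4 (1765). That share contains mt-Rnr2, which then changed by -0.26 and -0.25, and mt-Nd2 changed by -0.27 and -0.18. The members' median for Tfh5_4e4 against Tfh2_4e4 ran from -0.085 (without Tfh2_4e4 replicate 5) to 0.0048 (without Tfh2_4e4 replicate 2), and that for TfhA_4e4 against Tfh5_4e4 0.25 without TfhA_4e4 replicate 6. With promoter windows cut to the bases before the start, 26.1% of members held the ETS core and 2.90% the YY1 motif. Of tested protein-coding genes, 17.1% and 1.49% did. The cause of these shifts was not tested.

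With the replicate number as a block, the replicate block fit called 2 lower for Tfh2_4e4 against Tfh2_2e4, 2 higher and 1 lower for Tfh2_6e4 against Tfh2_4e4, and 1 lower for Tfh5_4e4 against Tfh2_4e4. Of 80 pairs of libraries with the same number, 15 correlated above 0.1 after removal of group means (mean r 0.049, against -0.0098 for other numbers), so not every pair passed and libraries were not treated as paired. As a hint from the data and not from the design, 15 of 34 libraries had their highest mean correlation with that number. The members' summed share was above that of Tfh2_6e4 in Tfh2_1e4 for 6 of 6 numbers, and TfhA_4e4 was above Tfh2_4e4 and Tfh5_4e4 for 5 of 5 numbers each. A term for numbers 1 to 3 against 4 to 6, chosen after seeing the data, gave 2 higher and 3 lower for Tfh2_4e4 against Tfh2_2e4 and 11 higher and 25 lower for the slope.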

Other observations

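The members with an NRF1 motif in the promoter window differed in their calls along the Tfh2 numbers from those without, a split looked at after the values were seen and not tested. Of 14 tested members with the motif, 6 rose and 1 fell, and of 50 without it 2 rose and 22 fell. Over all tested protein-coding genes with a promoter entry the shares were close: 21.2% of 1411 genes with the motif rose and 24.5% fell, and 23.9% of 7161 without it rose and 23.8% fell. For TfhA_4e4 against Tfh2_4e4, 2 of the 14 rose and 1 fell, and 11 of the 50 rose and 2 fell. Members were also split by each of the other motifs named above, so the NRF1 split was picked from several. Along the Tfh2 numbers, 3 of 25 tested members with the ETS core rose and 8 fell, and of 39 without it 5 rose and 15 fell.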
